A study of Mus musculus with 27 samples.

Results

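Hepatocyte identity transcription factors are the DNA-binding proteins that set up and hold the gene programme of the main liver cell. CpG methylation was described here at 8 of the 21900 protein-coding genes of the gene table: Hnf4a, Foxa1, Foxa2, Foxa3, Cebpa, Cebpb, Onecut1 and Prox1. Their positions were those inside the span of each gene, or up to 5 kb on either side, that were listed in at least 2 of the 3 samples of every strain. Of 3267 positions listed in any sample near these genes, 2132 (65.3%) met that condition, against 1951655 of 5240546 in the whole data set. The samples were hepatocytes of female mice aged 12 weeks from 9 inbred strains, A/J, C57BL/6J, 129S1/SvImJ, NOD/ShiLtJ, NZO/HlLtJ, CAST/EiJ, PWK/PhJ, WSB/EiJ and DBA/2J, with 3 samples per strain that the labels call biological replicates. No treatment or engineered allele is named for any group, and the labels describe no step by which the hepatocytes were isolated. The study surveyed strain differences in epigenetic marks and gene expression, and its reduced representation bisulfite sequencing (RRBS) data were used here. RRBS reads DNA fragments that start at CCGG, where the enzyme MspI cuts, so CpG-rich sequence is covered densely and other sequence sparsely. The files hold no expression values, so the labelled cell type could be compared only with methylation at marker promoters, and of 6 hepatocyte markers only Fgb had a promoter value, 4.59%.

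Hnf4a is a nuclear receptor that binds many liver genes and is needed to form and keep hepatocytes. Foxa1, Foxa2 and Foxa3 are forkhead proteins known as pioneer factors, which can bind closed chromatin and open liver enhancers for others. Cebpa and Cebpb are leucine zipper proteins of metabolism and of the acute phase and regeneration response. Onecut1, also called HNF6, and the homeobox protein Prox1 act in the early liver bud and in the adult hepatocyte. CpG-rich promoters are as a rule free of methylation, while CpGs inside transcribed genes are as a rule methylated.

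The 250 bases before a start site are shown for 4 promoters, because they span the range from CpG-poor to CpG-rich and show which CpGs the assay reached. Capitals mark CpGs with at least 1 measured position; lower case cg was not measured. Sequences and start sites are from RefSeq on GRCm38.p6, where all 8 genes were matched to 12 listed start sites. Cebpb (chr2:167688665-167688914, plus strand) had 33 of 41 CpGs measured, Onecut1 (chr9:74861671-74861920, plus strand) 25 of 31, Prox1 (chr1:190170828-190171077, minus strand) 20 of 20, and the first start of Hnf4a (chr2:163506607-163506856, plus strand) 2 of 3.
Cebpb: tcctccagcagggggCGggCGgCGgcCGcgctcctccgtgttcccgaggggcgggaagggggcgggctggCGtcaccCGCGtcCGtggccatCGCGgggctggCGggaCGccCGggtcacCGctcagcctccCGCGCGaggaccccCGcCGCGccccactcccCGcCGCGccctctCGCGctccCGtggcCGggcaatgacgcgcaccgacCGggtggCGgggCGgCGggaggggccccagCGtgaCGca
Onecut1: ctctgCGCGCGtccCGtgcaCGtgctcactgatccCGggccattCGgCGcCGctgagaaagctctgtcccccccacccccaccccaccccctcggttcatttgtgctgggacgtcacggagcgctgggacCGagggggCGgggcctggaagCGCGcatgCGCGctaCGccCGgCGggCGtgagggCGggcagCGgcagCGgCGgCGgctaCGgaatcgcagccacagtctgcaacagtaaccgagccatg
Prox1: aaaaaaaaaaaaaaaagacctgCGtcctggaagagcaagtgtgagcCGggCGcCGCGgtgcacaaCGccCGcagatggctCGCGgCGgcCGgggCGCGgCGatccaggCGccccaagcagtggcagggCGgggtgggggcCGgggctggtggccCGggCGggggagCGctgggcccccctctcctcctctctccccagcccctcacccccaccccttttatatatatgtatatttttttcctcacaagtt
Hnf4a first start: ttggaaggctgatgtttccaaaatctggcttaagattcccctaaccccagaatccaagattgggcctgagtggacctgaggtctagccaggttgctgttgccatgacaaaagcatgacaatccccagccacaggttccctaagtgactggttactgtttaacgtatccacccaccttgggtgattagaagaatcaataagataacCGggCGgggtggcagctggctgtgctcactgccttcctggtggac
The median RefSeq promoter entry held 6 CpGs in these 250 bases, and the sequence CCGG, which reads the same on both strands, was present in 47.0% of 32815 entries and at 9 of the 12 start sites. At the measured positions shown in capitals, the mean over samples was 0 to 1.49% for Cebpb, 0 to 1.92% for Onecut1, 0 to 2.51% for Prox1 and 5.25 to 5.46% for Hnf4a. In the same window of the second Hnf4a start and of Foxa1 no CpG was measured. The promoter value of that Hnf4a start, at 163547155, comes only from positions downstream of it, at 163547268 to 163547716. That of Foxa1 comes from positions farther out or downstream of the start.

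Each sample listed 2904787 to 3156965 positions, and 2100 to 2132 of the 2132 positions kept at these 8 genes. The mean over the kept positions ranged from 29.99 to 31.8% per sample, and samples of 1 strain correlated at 0.949 to 0.973. The files give a percent per position without read counts. Coverage is therefore unknown, and intervals for counting error could not be computed. Listed positions that do not lie at a CpG of the reference made up 0.467% in C57BL/6J, 2.12% in CAST/EiJ and 2.10% in PWK/PhJ, counted within the RefSeq promoter entries. The strain genomes were not used here. A shift in the mix of cells and a shift in methylation within hepatocytes cannot be told apart in these bulk samples, and the part of sequence variants in any strain difference was not tested.

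Most positions measured at the 8 genes were unmethylated or nearly so in the mean of the 27 samples. Of the 2132 positions, 1893 (88.8%) had a mean below 20%, against 63.5% of all kept positions, and 113 had a mean above 80%. Of the 2132, 1185 lay within 1000 bp of a listed start. The 63.5% covers positions anywhere in the genome, and the share over like windows of other genes is not given here. The share below 20% was 99.2% at Cebpb, 98.2% at Cebpa, 97.9% at Foxa2, 86.6% at Onecut1, 84.8% at Foxa1, 77.8% at Foxa3, 75.5% at Prox1 and 56.1% at Hnf4a. Cebpa, Cebpb and Foxa2 stayed low over almost everything measured, with 2 positions above 80% at Cebpa and 0 at the others. Hnf4a, Foxa3 and Prox1 changed from low values near a start to high values deeper in the gene. Their windows, flanks included, held 20, 22 and 31 positions above 80%. The Foxa1 window held 24, with a mean of 65.3% in its upstream flank and 3.20% in its body.

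**Figure D1:**
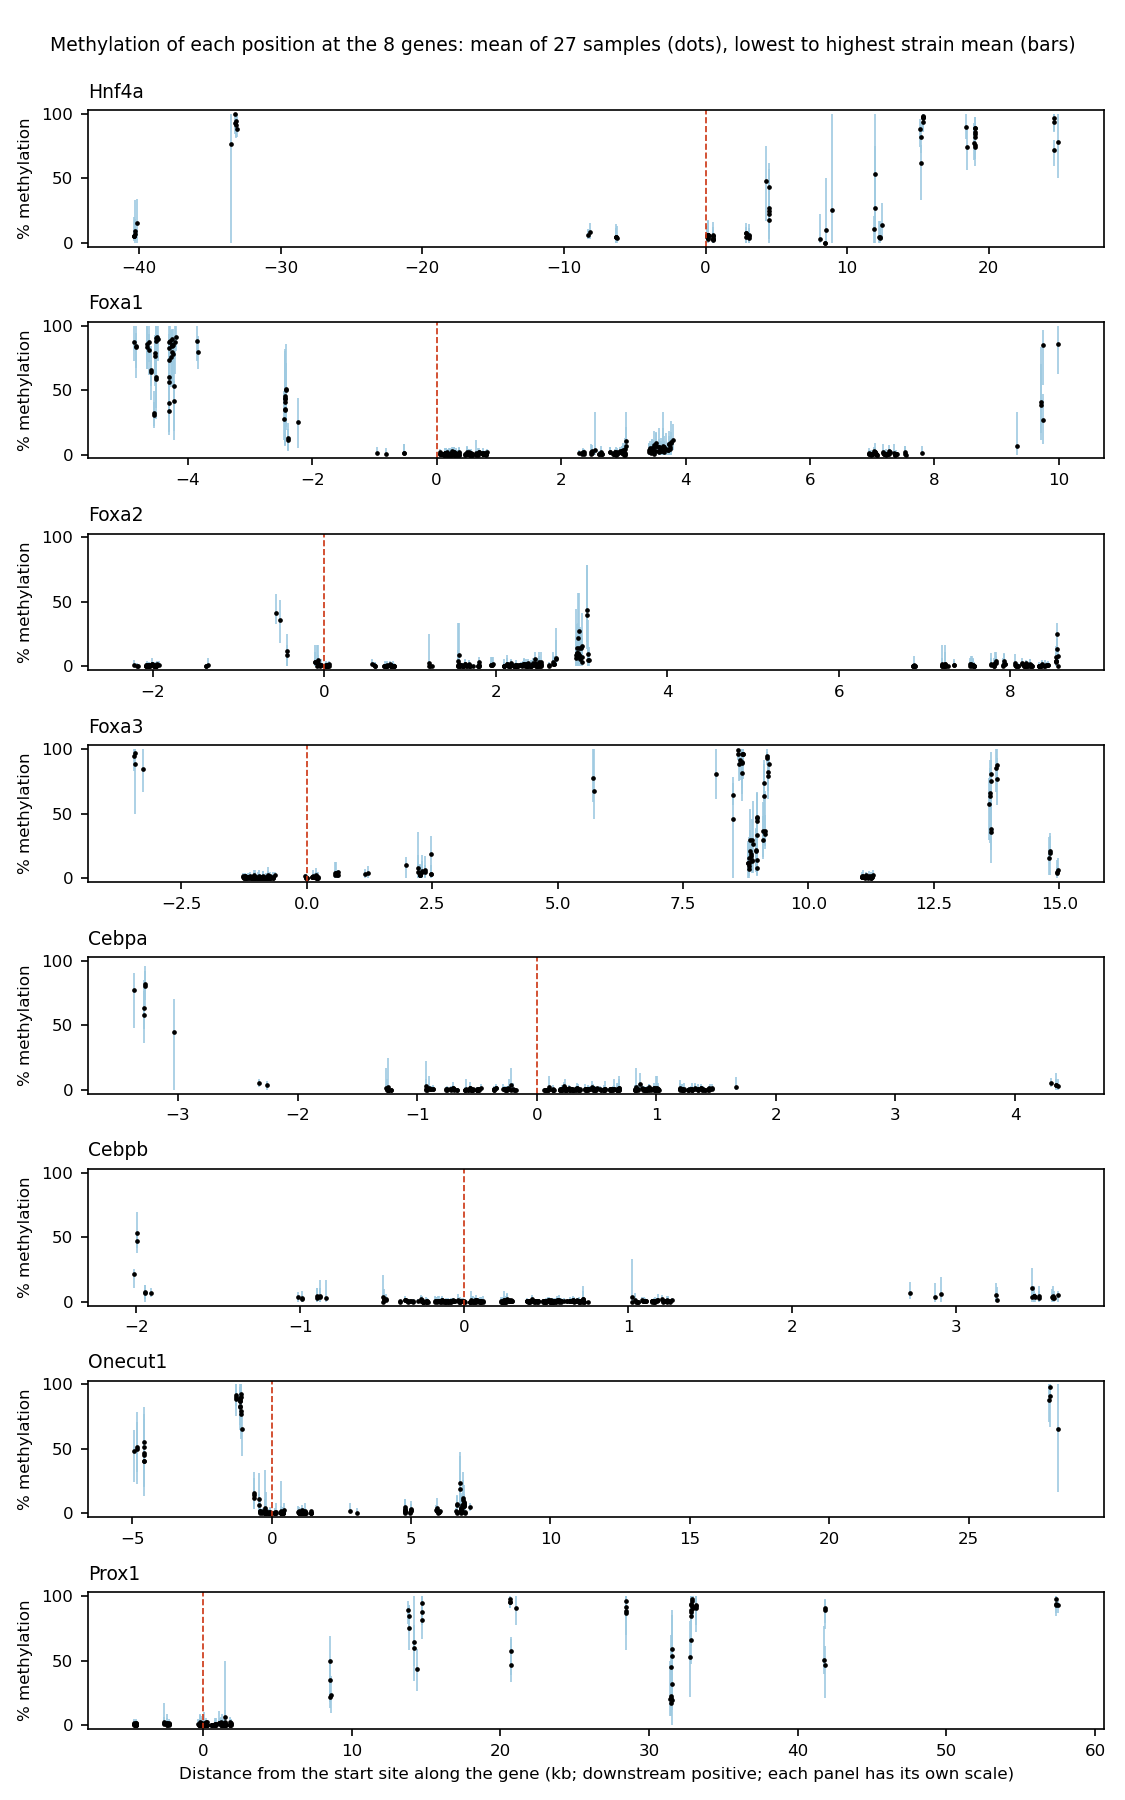
Percent methylation of each kept position (y axis) against its distance from a start site along the gene in kb (x axis, a separate scale per gene), one panel per gene. Dots are means over 27 samples, bars run from the lowest to the highest of the 9 strain means, and the dashed line is the start site (for Hnf4a the second start). Dots lie near 0% at every dashed line, and long bars occur mainly away from it.

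At the promoters, taken as the positions within 1000 bp of a listed start, methylation was low at all 12 starts and no start was called different between strains. A feature was called different when limma's moderated F test over the 9 strains gave a Benjamini-Hochberg adjusted p under 0.05 and the strain means spanned a minimum range, 5 points for promoters and gene bodies. Across all genes 8.37% of 13444 promoter windows were called, and 0 of these 12 were; 1 of the 12, at Hnf4a, had an unadjusted p under 0.05. The windows of the 3 Foxa2 starts and of both Prox1 starts overlap and share positions.

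Cebpa and Cebpb, the CCAAT/enhancer-binding proteins, had promoter means of 0.499% over 249 positions and 0.492% over 290 positions. The 27 samples lay between 0.244 and 0.848% at Cebpa and between 0.247 and 0.944% at Cebpb. The adjusted p was 0.836 and 0.199. The Foxa1 promoter had a mean of 0.515% over 153 positions, with samples between 0.210 and 0.784%. The Foxa3 promoter had a mean of 0.765% over 83 positions, with samples between 0.236 and 1.47%. At Foxa2, the factor needed with Foxa1 to start liver development, the means were 2.38% at the outermost start (58 positions), 0.742% at the middle start (81 positions) and 0.826% at the innermost start (137 positions). The start of Onecut1 had 1.14% over 96 positions, from 0.634% ± 0.473 in C57BL/6J to 1.64% ± 0.0753 in A/J (SD, n = 3 each), with an adjusted p of 0.417. Both Prox1 starts had means of 0.453% (86 positions) and 0.664% (54 positions). At the start with 0.453%, 9.67% of all promoter windows had a lower mean.

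Hnf4a stood apart from the other 7 genes in having the most methylated promoters. It has a distal start, known mainly from pancreas and early liver, and a proximal start 40.3 kb downstream, which is the one known from adult hepatocytes. The proximal start had a mean of 4.73% over 18 positions, with strain means from 1.87% in DBA/2J to 10.03% in PWK/PhJ and an adjusted p of 0.466. The PWK/PhJ mean rests on replicate 1, with 21.2%, beside 3.38 and 5.55% in the others, and without it the difference from DBA/2J was 2.60 points. The distal start had a mean of 7.94% over 6 positions, and 82.2% of all promoter windows had a lower mean.

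At the distal Hnf4a start the 3 PWK/PhJ samples had 20.9, 14.4 and 16.3%, the 3 NZO/HlLtJ samples 4.97, 0.758 and 2.94%, the C57BL/6J samples 3.13, 5.18 and 4.55% and the CAST/EiJ samples 4.15, 4.55 and 2.90%. Of the 3 WSB/EiJ samples, replicate 2 had 23.0% and the others 3.74 and 3.97%. The other 4 strains lay between 3.82 and 14.2%. All PWK/PhJ samples were above all samples of every other strain except WSB/EiJ replicate 2. The range of strain means was 14.3 points, with an unadjusted p of 0.00946 and an adjusted p of 0.0526, so it was not called. It was called when 1 of 5 samples was left out, with an adjusted p of 0.000944 without WSB/EiJ replicate 2, 0.0309 and 0.0343 without WSB/EiJ replicates 3 and 4, 0.0458 without A/J replicate 3 and 0.0407 without DBA/2J replicate 3. The single position of this window that was called, chr2:163507019-163507019, lies 162 bases past the start and had 0% in all 3 WSB/EiJ samples, 46.2, 43.8 and 12.5% in A/J and 21.1, 46.2 and 29.4% in PWK/PhJ (adjusted p 0.00216).

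**Figure D2:**
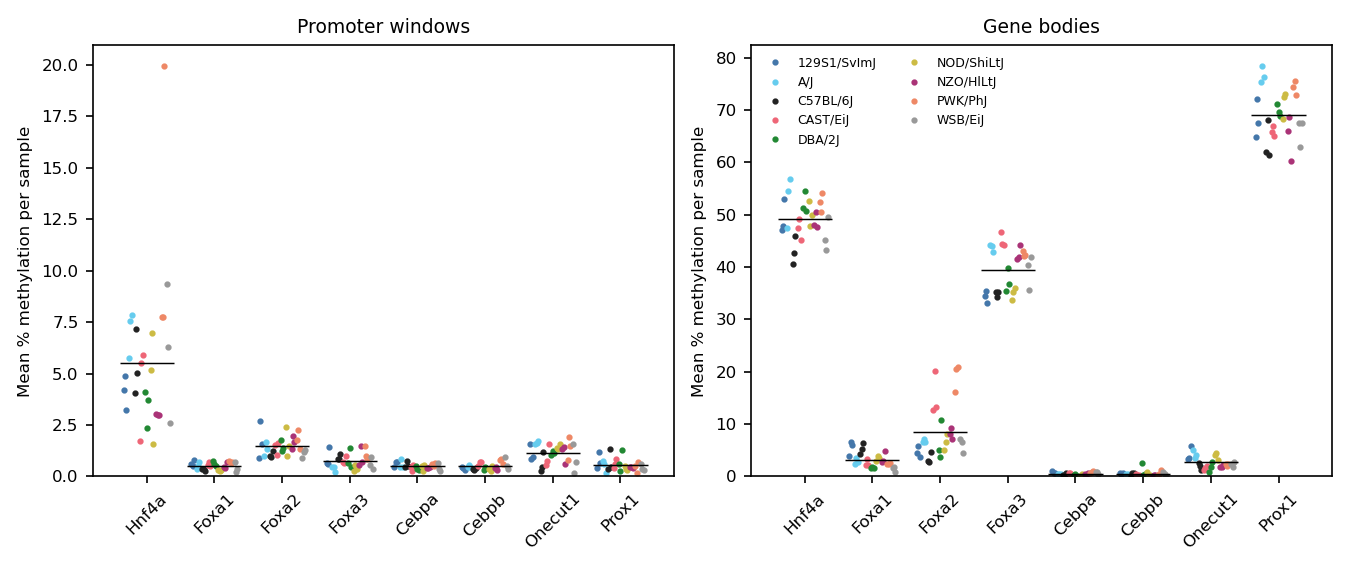
Mean percent methylation per sample (y axis, linear, with a different scale in each panel) over the promoter windows (left) and gene bodies (right) of the 8 genes; each point is 1 sample, coloured by strain, and lines are means of 27 samples. For genes with several starts the promoter value pools their windows; Hnf4a has the highest promoter values, up to 19.95% in a PWK/PhJ sample, and Prox1, Hnf4a and Foxa3 have the highest bodies.

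Inside the gene bodies, taken as positions in the gene more than 1000 bp from any listed start, the 8 genes differed widely. The mean was 69.0% at Prox1, 49.1% at Hnf4a, 39.4% at Foxa3, 8.51% at Foxa2, 3.20% at Foxa1, 2.70% at Onecut1, 0.519% at Cebpa and 0.513% at Cebpb. The median over 9688 gene bodies was 83.5%, so all 8 were below it. Cebpa and Cebpb were at the lowest end, with 0.485 and 0.464% of all bodies lower. These are short genes, and their body positions continue the CpG-rich region around the start.

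Strain differences were called in 4 of the 8 bodies, Foxa2, Foxa3, Prox1 and Hnf4a, where 24.0% of all gene bodies were called. Foxa2 had the widest range. Its body had 16.2, 20.4 and 20.9% in PWK/PhJ and 12.6, 20.1 and 13.2% in CAST/EiJ. It had 2.90, 2.71 and 4.74% in C57BL/6J. The other 6 strains had means of 4.67 to 8.18%, and every sample of PWK/PhJ and CAST/EiJ was above every sample of the other 7 strains (adjusted p 1.78e-05). PWK/PhJ and CAST/EiJ samples overlapped each other.

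The Foxa3 body ranged from 34.3% ± 1.10 in 129S1/SvImJ to 45.1% ± 1.37 in CAST/EiJ (SD, n = 3 each), with an adjusted p of 1.38e-05. 129S1/SvImJ, C57BL/6J, NOD/ShiLtJ, DBA/2J and WSB/EiJ lay at or below 42.0% in every sample, and PWK/PhJ, A/J and CAST/EiJ at or above 42.2%, with no break between them. NZO/HlLtJ had 41.6, 41.9 and 44.2%. In the Prox1 body C57BL/6J had 62.0, 68.1 and 61.5% and A/J had 75.4, 78.4 and 76.3%, with an adjusted p of 0.000686. All A/J samples were above all samples of 7 of the other 8 strains, and overlapped with PWK/PhJ, at 74.4, 75.5 and 73.0%.

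The Hnf4a body ranged from 43.1% ± 2.73 in C57BL/6J to 53.0% ± 4.83 in A/J (SD, n = 3 each; adjusted p 0.0268). That call was lost without C57BL/6J replicate 1 (adjusted p 0.0791) or replicate 2 (0.0652). The bodies of Foxa1 and Onecut1 had an adjusted p of 0.000248 and 0.00307, but their strain means spanned less than 5 points: 1.40% in WSB/EiJ to 5.49% in 129S1/SvImJ at Foxa1, and 1.62% in CAST/EiJ to 4.21% in 129S1/SvImJ at Onecut1. At Cebpa and Cebpb the adjusted p was 0.277 and 0.808.

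**Figure D3:**
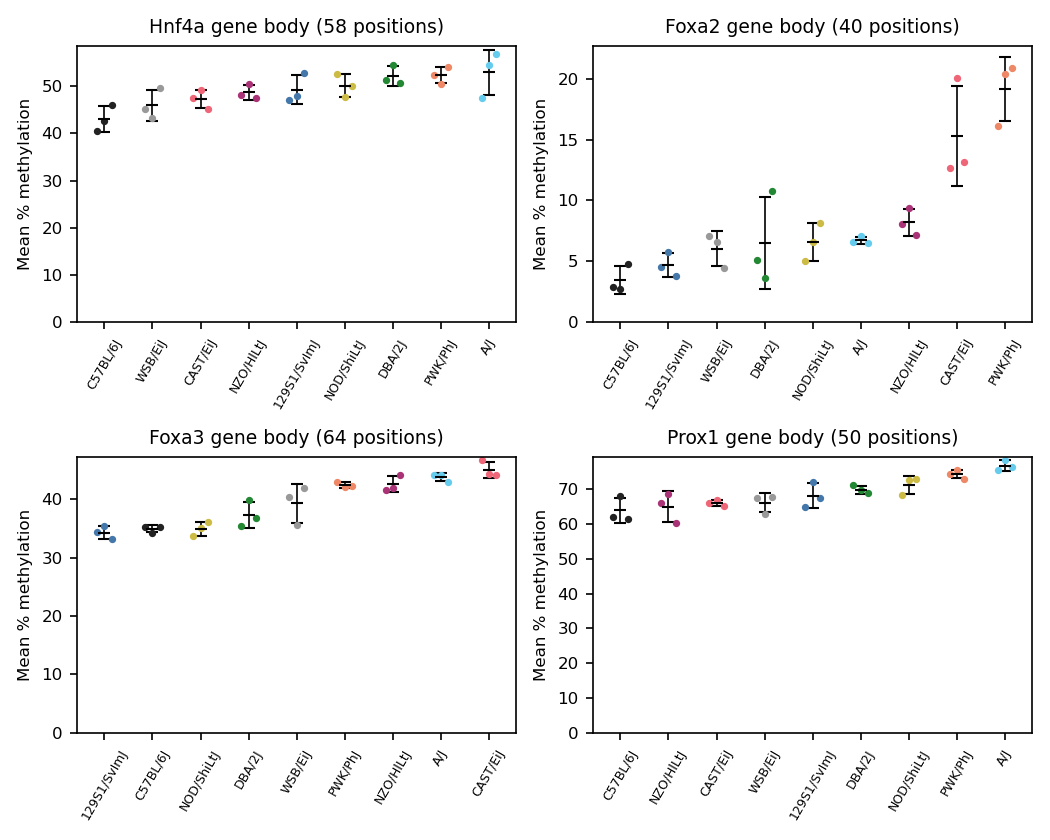
Mean percent methylation per sample (y axis, from 0, a separate scale per panel) over the 4 gene bodies called different between strains, with strains on the x axis in order of their mean. Points are samples, and horizontal marks with bars are strain means ± SD (n = 3); at Foxa2 the CAST/EiJ and PWK/PhJ points, 12.6 to 20.9%, are above all other points.

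To place the differences along the genes, the genome was divided into tiles of 1 kb with at least 5 positions, called where strain means spanned 25 points or more at an adjusted p under 0.05. Of the 28 tested tiles inside these gene windows 6 were called, against 7.75% of 58172 tiles, and 1 called tile lay at each of Foxa1, Foxa2, Foxa3, Cebpa, Prox1 and Hnf4a. None of the 6 had its centre within 1 kb of a start listed in the RefSeq promoter table, although the Foxa1 tile adjoins the upstream end of the Foxa1 span, which reaches beyond the listed start. C57BL/6J was the lowest strain in 3 of them and PWK/PhJ the highest in 3, while at Foxa1 PWK/PhJ was the lowest. No strain was thus high or low at all 6.

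The widest range was upstream of Foxa1, at chr12:57548001-57549000, where 12 positions lie 2.2 to 2.5 kb before the listed start and just outside the gene span. Methylation there was 13.9, 12.8 and 12.5% in PWK/PhJ, 22.3, 11.1 and 13.6% in WSB/EiJ, 16.0, 21.5 and 25.1% in C57BL/6J and 17.8, 30.6 and 29.2% in 129S1/SvImJ. It was 33.0, 39.0 and 39.98% in NZO/HlLtJ, 37.4, 52.0 and 51.7% in CAST/EiJ, 47.1, 54.8 and 41.1% in DBA/2J, 45.1, 46.8 and 53.3% in A/J and 65.8, 61.4 and 53.1% in NOD/ShiLtJ. With a cut chosen after the values were seen, the strains fell into a low set and a high set that did not overlap. Every sample of the first 4 strains was at or below 30.6% and every sample of the other 5 at or above 33.0%. Within each set, neighbouring strains overlapped. The difference between NOD/ShiLtJ and PWK/PhJ was 47.1 points with an adjusted p of 2.67e-07, and the tile was called under all 36 alternative settings. At 4 CpGs of this tile both strands were called, and their means were 51.1 and 49.9%, 35.3 and 34.4%, 43.2 and 40.7%, and 45.4 and 44.3%. The call at 57548534, with the mean of 49.9%, was lost when 1 of 8 samples was left out. It was lost too with an offset of 1 point (adjusted p 0.195).

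Farther upstream of Foxa1, the tile from 57550001 with 39 positions had 60.9% in WSB/EiJ and 82.1% in NZO/HlLtJ, a range of 21.2 points (adjusted p 0.00196), below the limit of 25. The Foxa1 promoter had 0.515%, and the variable tile lies between it and this flank tile. The order of strains differed between these tiles: PWK/PhJ, lowest in the variable tile, had 77.8% here, and A/J, of its high set, had 67.8%, below C57BL/6J (68.1%) and 129S1/SvImJ (74.6%) of its low set. WSB/EiJ was low in both.

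The Prox1 tile, at chr1:190139001-190140000, lies 30 kb inside the gene. The 9 positions had 13.4, 16.7 and 9.87% in CAST/EiJ and 54.5, 58.7 and 57.5% in A/J, with an adjusted p of 5.31e-05. All A/J samples were above every sample of the other 8 strains. NOD/ShiLtJ was second with 35.1, 51.9 and 52.8%, and the 129S1/SvImJ samples, at 32.0, 51.1 and 27.2%, spread most. C57BL/6J, NZO/HlLtJ, WSB/EiJ and DBA/2J had means of 22.6 to 29.8% and PWK/PhJ 37.4%. The neighbouring tile at 31.0 kb had 81.1% with an adjusted p of 0.114, so the low values did not extend to it.

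The Foxa2 tile, at chr2:148043001-148044000, lies about 1 kb from the far end of this minus-strand gene and holds 15 positions. PWK/PhJ had 27.7, 30 and 40.8%, CAST/EiJ 22.8, 27.5 and 15.3% and C57BL/6J 7.28, 5.33 and 7.23% (adjusted p 1.20e-05). All PWK/PhJ samples were above all samples of every other strain, and all C57BL/6J samples were below all samples of 7 of the other 8. The 6 remaining strains had means of 9.52 to 14.3%. Without PWK/PhJ replicate 1, the highest sample, the range fell to 22.2 points and the tile was not called, with an adjusted p of 9.68e-05. The tile next to it towards the start, with 93 positions, had 2.01%.

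The Cebpa tile, at chr7:35116001-35117000, lies 2.8 kb before the start, where the unmethylated region around Cebpa ends, and holds 6 positions. C57BL/6J had 44.0, 38.7 and 29.5% and NZO/HlLtJ 67.7, 75.2 and 67.3% (adjusted p 0.000448). C57BL/6J, WSB/EiJ and 129S1/SvImJ samples were all at or below 51.4%, and all samples of CAST/EiJ, NOD/ShiLtJ, A/J, PWK/PhJ and NZO/HlLtJ at or above 54.0%. DBA/2J samples reached from 51.0 to 64.7%. The Foxa3 tile, at chr7:19009001-19010000, lies in the flank beyond the far end of the gene, 14.0 kb from the start, with 10 positions. WSB/EiJ had 50.2, 37.0 and 53.7% and PWK/PhJ 78.9, 74.2 and 81.8% (adjusted p 0.000247). All samples of WSB/EiJ and of DBA/2J, at 58.1, 49.8 and 51.2%, were below all samples of 6 of the other strains, and NZO/HlLtJ reached down to 56.8%.

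The Hnf4a tile, at chr2:163551001-163552000, lies 4.3 kb past the proximal start. Its 6 positions had 11.1, 20.8 and 8.33% in C57BL/6J and 34.1, 34.7 and 59.5% in PWK/PhJ, where replicate 1 was far above the other samples (adjusted p 0.0171). All C57BL/6J samples were below all samples of 6 of the other strains. The call was lost without PWK/PhJ replicate 1 (21.0 points), without C57BL/6J replicate 1 (adjusted p 0.0600), and without C57BL/6J replicate 4 (0.0705). The same PWK/PhJ replicate 1 had the highest value over the pooled Hnf4a promoter windows, 19.95%, where the other PWK/PhJ samples had 7.77 and 7.76%.

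**Figure D4:**
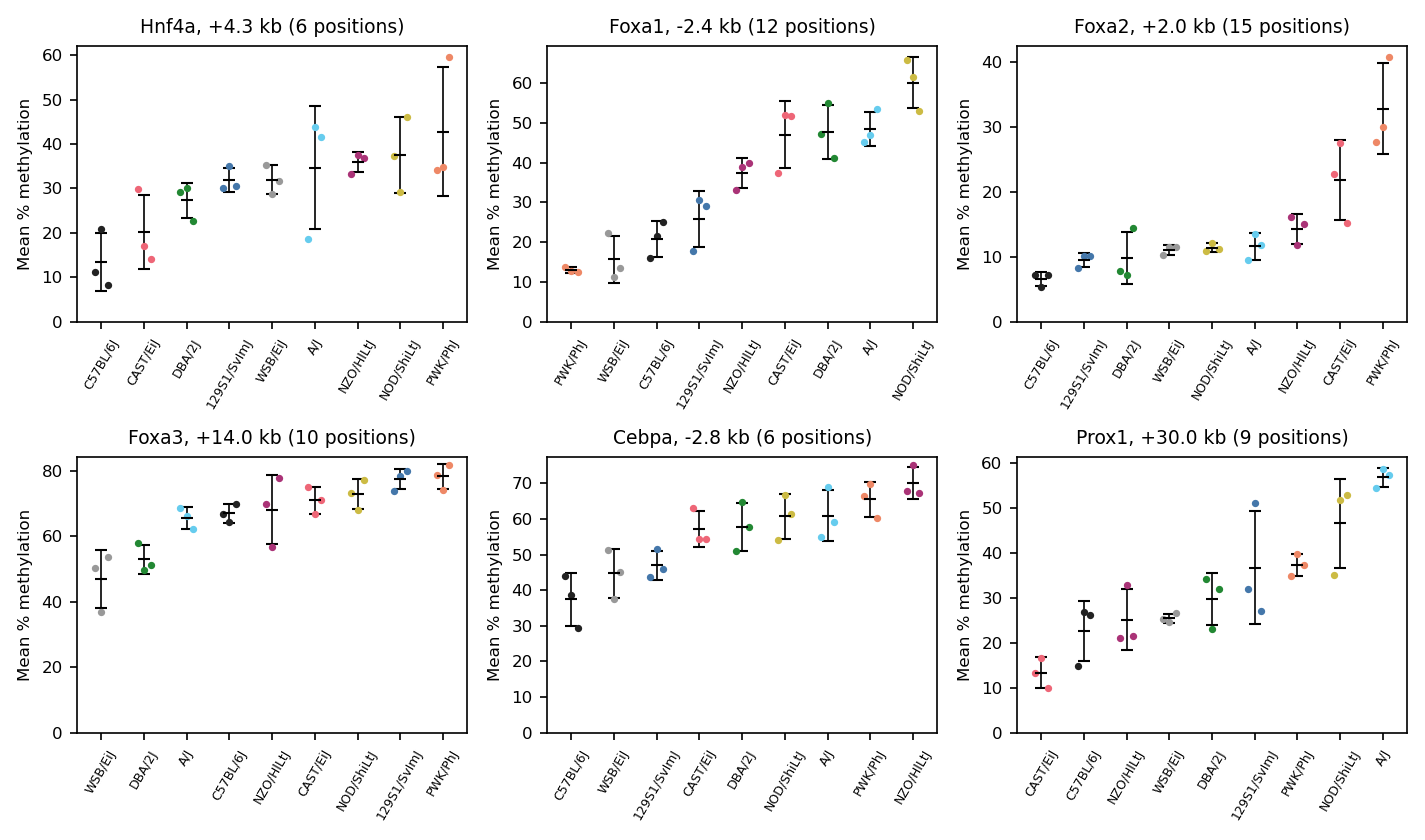
Mean percent methylation per sample (y axis, from 0, a separate scale per panel) in the 6 tiles of 1 kb called different between strains; panel titles give the distance of the tile centre from the nearest listed start in kb, negative upstream. Points are samples, marks with bars are strain means ± SD (n = 3), and strains stand in order of their mean; at Foxa1 the order runs from 13.0% in PWK/PhJ to 60.1% in NOD/ShiLtJ.

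Single positions were called partly inside and partly outside these tiles. Of 499 positions tested at the 8 genes, those whose mean lay at least 2.5 points from 0 and from full methylation, 33 (6.61%) were called with a range of at least 25 points. Genome-wide 4.33% of 868537 positions were called, and 4.17% of those in or within 5 kb of any protein-coding gene. Foxa1 and Foxa3 had 10 each, Foxa2 had 4, Onecut1 and Prox1 had 3 each, Hnf4a had 2, Cebpa had 1 and Cebpb had 0. Within 1000 bp of a listed start 2 of 65 tested positions were called (all genes 3.96%), and farther away 31 of 434 (all genes 4.39%). The latter include the 9 called in the Foxa1 tile, which adjoins the upstream end of the Foxa1 span. The split thus depends on which starts are listed. The called tiles held 9 of the called positions at Foxa1, 4 at Foxa2, 3 at Prox1, 1 at Cebpa and 0 at Foxa3 and Hnf4a, and the 3 at Onecut1 lay in no called tile. Neighbouring positions lie on the same fragments, and both strands of a CpG are counted, so the positions are not independent of each other.

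At Foxa1, 9 of the 10 called positions lay in 31 bases of the upstream tile, and the one with the widest range, chr12:57548554-57548554, had 8.33, 14.3 and 6.25% in PWK/PhJ and 82.6, 80 and 78.3% in NOD/ShiLtJ (adjusted p 0.000373). At Foxa2 the widest was chr2:148043904-148043904, with 22.2, 10 and 7.14% in C57BL/6J and 73.7, 75 and 87.5% in PWK/PhJ (adjusted p 0.00242). Its opposite-strand partner, one base on, was called too, from 18.6% in DBA/2J to 78.7% in PWK/PhJ. PWK/PhJ was thus highest on both strands, but C57BL/6J had 37.5, 31.25 and 36.4% on the partner. The partner's call was lost without PWK/PhJ replicate 1 (adjusted p 0.0608) and with an offset of 1 point (0.0959).

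At Foxa3, 7 of the 10 called positions lay between 19014423 and 19014656, within the gene and 8.9 to 9.1 kb from the start, and NZO/HlLtJ or A/J was the highest strain at each of them. Of these calls, that at 19014572 (adjusted p 0.04995) was lost when 1 of 24 samples was left out, that at 19014571 with 1 of 18 and that at 19014560 with 1 of 7. That at 19014656 was lost without the 3 C57BL/6J samples (adjusted p 0.0738). The called Foxa3 position with the widest range, 78.5 points, was chr7:19015043-19015043, with 0 in all listed samples of CAST/EiJ (2 of 3) and in all 3 NOD/ShiLtJ samples, and 100, 55.6 and 80% in PWK/PhJ (adjusted p 0.0366). The opposite strand of that CpG had a range of 17.1 points (adjusted p 0.797), and with the strands averaged the difference between PWK/PhJ and CAST/EiJ was 34.0 points and the call was lost (adjusted p 0.0979). It was lost too when 1 of 12 samples was left out, with adjusted p-values up to 0.170 over the alternatives.

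At Prox1 the called position with the widest range was chr1:190139299-190139299, with 20, 11.8 and 15.4% in CAST/EiJ and 88.2, 85.0 and 84.2% in A/J (adjusted p 0.00311). Its opposite strand had a wider range, 75.1 points, with the same lowest and highest strain, and was not called (adjusted p 0.135). At Onecut1 it was chr9:74868683-74868683 inside the gene, with 0% in all 3 PWK/PhJ samples and 37.5, 42.9 and 52.4% in 129S1/SvImJ (adjusted p 0.00798). A second Onecut1 position, at -466 bases from the start, had 0% in all 3 C57BL/6J samples and 28.6, 36.4 and 28.6% in A/J (adjusted p 0.0369), a call lost when 1 of 14 samples was left out. The third, 4.9 kb upstream, had 24.6% in CAST/EiJ and 64.4% in PWK/PhJ (adjusted p 0.0450) and was lost when 1 of 21 samples was left out.

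At Cebpa the called position, chr7:35116257-35116257, had 0% in all 3 C57BL/6J samples, 8.33, 0 and 8.33% in WSB/EiJ and 50, 100 and 62.5% in DBA/2J (adjusted p 0.0103). At Hnf4a the second called position, chr2:163513638-163513638 in the body, had 0% in all 3 NZO/HlLtJ samples and 33.3 to 100% in the 23 listed samples of the other strains, 1 NOD/ShiLtJ sample not being listed (adjusted p 0.0228). That call was lost when any 1 NZO/HlLtJ sample was left out, with adjusted p-values up to 0.122 over the alternatives. At Cebpb, where none was called, the tested position with the widest range had 0% in 129S1/SvImJ and a mean of 33.3% in DBA/2J (adjusted p 0.746), and 2 of 34 tested positions had an unadjusted p under 0.05.

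The unmethylated stretch around a start was measured as the run of listed positions that ends before 2 positions in a row at 20% or more. Since RRBS leaves gaps, it was measured also with the run ended at any gap of over 1000 bp, a version chosen after the data were seen, and the values that follow are of that kind unless stated. In the mean of all samples it spanned 3994 bp at Cebpa, 3760 bp at Foxa3, 3442 bp at Foxa2, 3219 bp at Cebpb, 2173 bp at Prox1, 2071 bp at Onecut1 and 1770 bp at Foxa1. These 7 genes were among the wider ones, with 88.5 to 99.5% of all starts narrower by the mean over samples. Both Hnf4a starts were narrow, 208 bp at the distal start and 449 bp at the proximal start, with 5.38 and 21.7% of all starts narrower. That rank depends on the gap limit: without it the widths averaged 879 bp at the distal start, with 36.0% of starts narrower, and 12796 bp at the proximal start, with 96.9% narrower. Taken on the mean of all samples, the stretches without the gap limit grew to 6686 bp at Cebpa, 5572 bp at Cebpb and 6497 bp at Prox1. They grew to 7782 bp at Onecut1, 11720 bp at Foxa1 and 12738 bp at the proximal Hnf4a start. They stayed the same at Foxa2, Foxa3 and the distal Hnf4a start, although single samples differed there. At Foxa2 the widest without the limit were 129S1/SvImJ replicate 1, C57BL/6J replicate 4 and DBA/2J replicate 3, at 8989 bp. With the limit these had 3517 bp, and the widest were other samples at 5224 bp. At Foxa3 the widest without the limit, C57BL/6J replicate 4, had 5904 bp, and 3753 bp with it.

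With the gap limit the widths at Cebpb, Prox1 and Foxa1 end on at least 1 side at a gap in coverage, so they say little about variation between samples. Those of the mean of all samples at Cebpa, Onecut1 and the proximal Hnf4a start also end at such a gap. Per sample, widths were 3218 or 3219 bp at Cebpb and 2168 to 2173 bp at Prox1. At Foxa1 they were 1770 bp except in 1 WSB/EiJ sample with 750 bp. Without the limit the samples ranged from 3219 to 5572 bp at Cebpb, from 6497 to 13239 bp at Prox1 and from 3996 to 12173 bp at Foxa1. No start of Cebpb, Prox1 or Foxa1 was called. With the gap limit 2 of the 12 starts were called at an adjusted p under 0.05, where 3.22% of 12097 starts were. At Foxa3, PWK/PhJ had a mean of 2836 bp and A/J 3760 bp (adjusted p 0.0146), with 2502 bp in the narrowest PWK/PhJ samples. Without the gap limit the PWK/PhJ mean was the same, but Foxa3 was not called by the same F test (adjusted p 0.188). At the distal Hnf4a start, PWK/PhJ had 0, 54 and 54 bp and C57BL/6J, CAST/EiJ, NZO/HlLtJ and WSB/EiJ 208 bp in every sample (adjusted p 0.0435). The narrow width was shared: 129S1/SvImJ had 54 bp in all 3 samples, A/J and NOD/ShiLtJ in 2 of 3 and DBA/2J in 1 of 3, with 208 bp in the rest. The 208 bp end at the position at 163507019 described above, which is followed by a gap in coverage, so this width mostly restates whether that single position was under 20%. At Foxa2, which was not called, samples ranged from 3116 to 5224 bp.

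Without the gap limit 2 of 12 starts were called, where 3.70% were called in all. They were the distal Hnf4a start, with 6827 bp in all 3 NZO/HlLtJ samples (adjusted p 3.08e-10), and Cebpa, with 7397 bp in every C57BL/6J and WSB/EiJ sample and 1 of 129S1/SvImJ and 6686 bp in all others (adjusted p 7.25e-05). The NZO/HlLtJ width at Hnf4a reaches across unmeasured sequence to the single position at 163513638 described above, and with the gap limit it was 208 bp. The added 711 bp at Cebpa reach to the single called position at 35116257, so this width restates the values of that position. The Cebpa call was lost with the gap limit (adjusted p 0.612), where C57BL/6J samples had 4705 bp and A/J samples 3994 bp, the same difference of 711 bp, and with a limit of 10% in place of 20% (adjusted p 0.846).

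**Figure D5:**
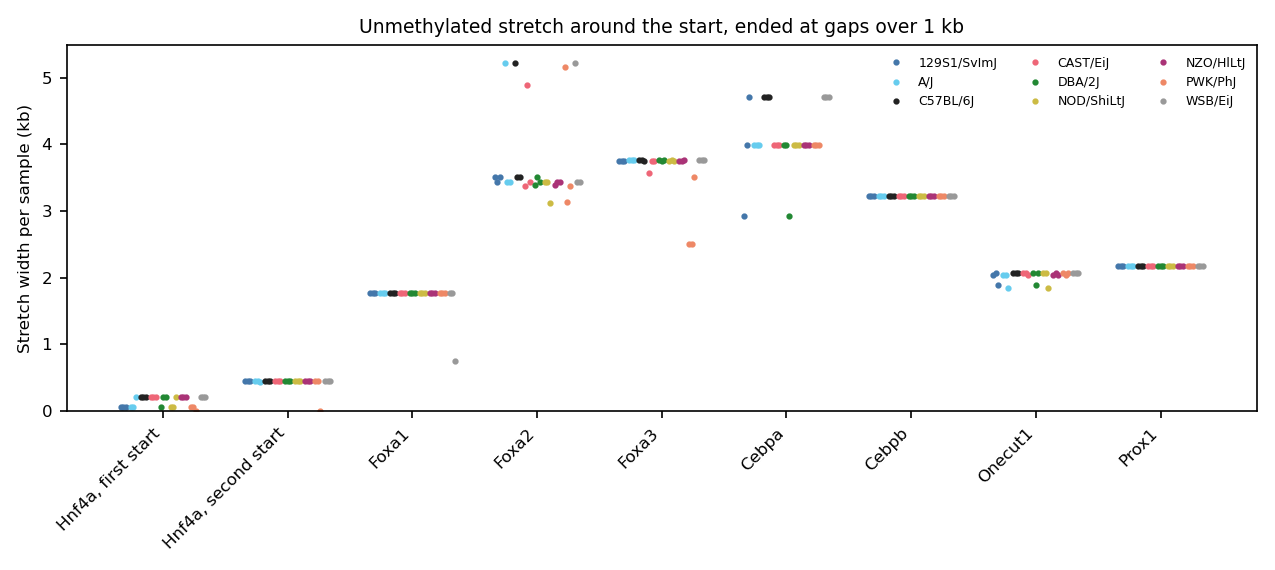
Width in kb (y axis, from 0) of the unmethylated stretch around each start, ended at gaps of over 1 kb, per sample and coloured by strain; starts that share a stretch at Foxa2 and Prox1 are drawn once. Cebpb and Prox1, limited by coverage gaps, give nearly the same width in every sample, PWK/PhJ samples reach down to 2.5 kb at Foxa3, and both Hnf4a starts lie below 0.5 kb.

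Other genes of the liver network were set beside these 8, with the least methylated start taken where a gene has several. Of 21 other liver transcription factors 11 had a promoter value, 9 of them under 5%, with a median of 0.581%, beside 0.629% for the 8 genes and 0.878% for all 11260 genes with a value. Nr5a2, a nuclear receptor of bile acid and cholesterol genes, was the 1 called promoter of that list, from 8.67% in CAST/EiJ to 44.6% in A/J (adjusted p 3.71e-10; all genes 8.96%), and its body was the 1 of 10 called, where 24.0% of all bodies were. The lowest of the list was Atf5 at 0.345% and the highest Nfia at 71.4%. Of 16 factors that direct other lineages, 10 had a promoter value, with a median of 4.65%, and 1 was called, Ebf1, at 1 of its starts (14.0%). Their range was 2.03% at Ebf1 to 87.3% at Myf5, and the bodies of Pdx1 and Myf5 were 2 called of 11 (all bodies 24.0%).

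Of 16 hepatocyte genes that these factors are known to act on, 4 had a promoter value: Apoa2 at 0.805%, Fgb at 4.59%, Apob at 11.3% and Pck1 at 11.4%. Pck1, the gluconeogenic enzyme, was called at its promoter, from 3.71% in NZO/HlLtJ to 17.9% in CAST/EiJ, and in its body, and the body of the bile acid enzyme Cyp8b1 was called, from 12.4% in DBA/2J to 40.5% in NZO/HlLtJ, so 2 of 4 bodies were, against 24.0% of all bodies, and 1 of 4 promoters, against 8.96% of all genes with a promoter value. Of the markers of other liver cell types, 0 of 5 macrophage and 0 of 5 lymphocyte genes had a promoter value. The endothelial markers Tie1 and Kdr had 92.2 and 3.13%, the stellate cell markers Des, Lrat and Reln 13.6, 5.93 and 0.628%, and the cholangiocyte markers Krt7 and Epcam 24.3 and 11.4%. Of the 7 promoters, those of Lrat, Krt7 and Epcam were called, Krt7 from 16.8% in DBA/2J to 35.2% in CAST/EiJ, Epcam from 5.59% in WSB/EiJ to 16.0% in CAST/EiJ and Lrat from 4.26% in NOD/ShiLtJ to 11.8% in PWK/PhJ. Of 9 marker bodies 1 was called, against 24.0% of all bodies, that of the lymphocyte gene Ptprc, from 56.3% in PWK/PhJ to 73.4% in CAST/EiJ. Their part in the strain differences at the 8 genes was not tested.

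Among the 4505 other called tiles, the 3 at named genes whose strain means were most like those of the Foxa1 tile were at Pianp on chromosome 6 (Pearson r 0.894 over the 9 strains), Tjp3 on chromosome 10 (0.840) and Ttll10 on chromosome 4 (0.830). These were picked as the highest of many and are a description only. The Tjp3 tile had 9.79% in WSB/EiJ and 12.2% in PWK/PhJ, the lowest of its strains, and 51.8% in A/J, the highest; the Pianp tile ran from 36.1% in WSB/EiJ to 63.0% in A/J.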

How the data were processed

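RRBS was run on 27 samples, 3 of each of 9 strains. The authors deposited, per the file headers, a percent methylation per position and no read counts. Per the submitters' processing notes, Trim Galore 0.6.3, Bowtie2, Bismark 0.22 and GRCm38/mm10 were used, with no role or order given; whether strain genomes served for alignment is not given in the sources used here. C57BL/6J files name the mitochondrial chromosome differently from the others, so calls were repeated without those 3 samples.

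Positions listed in at least 2 of 3 samples of every strain were kept. Strain differences were tested with limma's moderated F test over 9 strains on log2((percent + 5)/(100 - percent + 5)), over all positions, 1 kb tiles, promoter windows and gene bodies with at least 5 positions (tiles and positions with a mean of 2.5 to 97.5%), and on log2(width + 100 bp), with Benjamini-Hochberg adjustment over all features of a kind. The test was written in Python 3.11.15 (numpy 2.4.6, pandas 2.3.3, scipy 1.17.1, numba 0.67.0), tested on simulated data and checked against limma 3.58.1 in R 4.3.3. Over 32481 sampled positions with no missing sample, 1556 had an adjusted p under 0.05 by both and 4 by 1 of them. Over 7519 with a missing sample, 284 did by both and 42 by 1. In this check p was adjusted over the sampled positions, and no minimum range was asked. Figures used matplotlib 3.10.9.

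The 8 genes and all lists (other liver factors, other lineages, hepatocyte targets and markers of 6 cell types) were chosen with earlier results of these data known. Named in the text are the 8 genes with their promoters, bodies, widths, called tiles and positions of widest range, the called, lowest and highest genes of each list, and the 3 called tiles most like that of Foxa1. Depth is unknown, and p-values measure the spread between samples the labels call biological replicates. Alternatives changed the offset, filters, windows, limits and strands, left out each sample, and added a replicate block.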

Additional observations from a re-analysis of the deposited data

How the results depend on the processing

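The 33 called positions became 19 with an offset of 1 point and 19 with a range of at least 50 points, and the 6 tiles became 10 with a range of at least 10 points. The 0 promoters became 1, the distal Hnf4a start, over positions listed in all 27 samples, with an offset of 1 point, or 2000 bp either side. The 2 widths became 1 with a limit of 10%, 5 with a limit of 30% (the 3 added are the Foxa2 starts, which share 1 stretch), and 1 where a run ends at the first position over the limit, where the Cebpa width of C57BL/6J minus A/J was -601 bp (adjusted p 0.874 with limma's test) against 711 bp; the cause was not tested. Leaving out 1 sample gave 25 to 36 positions, 4 to 7 tiles, 0 to 1 promoters, 3 to 4 bodies and 2 to 3 widths. The replicate number as a block gave 22 positions (20 of them shared), 5 tiles, 0 promoters, 3 bodies and 2 widths, losing the Hnf4a tile (adjusted p 0.141), the Hnf4a body (0.0557) and all 3 Prox1 positions (0.0520 to 0.0774). With strain means removed, samples with the same number correlated at -0.00809 to 0.00882 over 76 pairs, and 5 of 27 samples correlated best with their own number. Samples with different numbers correlated at -0.0081 to 0.00935 over 248 pairs. No pairing by number was thus seen, and a shared batch was not tested. Without the 3 C57BL/6J samples there were 29 positions (27 of them shared), 4 tiles, 0 promoters, 3 bodies and 3 widths. Each called position and tile of the 8 genes, and each of their promoters, bodies and widths, was compared under each of its alternatives. Genes of the other lists, and positions and tiles that were not called, were not compared in this way. Of these comparisons, 2286 kept their side of the threshold, 207 lost it, 16 gained it and 1, of the called Cebpa width, changed sign. They include values that were never called, and starts that share a stretch are counted separately. Differences that were never called also changed sign: the Foxa1 width with the gap limit (-340 bp), the Onecut1 width with runs ended at the first position over the limit (-51.3 bp) and the middle Foxa2 promoter within 500 bp (-0.0653 points). Ending runs at gaps of over 1000 bp was chosen after seeing the data.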

Other observations

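Positions listed in all samples of 1 strain and in none of another are outside the comparisons above. Every C57BL/6J sample listed 2337 positions near the 8 genes. Of these, 79 (3.38%) were missing from all CAST/EiJ samples, 55 from all NOD/ShiLtJ, 46 from all PWK/PhJ, 41 from all A/J, 34 each from all DBA/2J and all WSB/EiJ, 32 from all NZO/HlLtJ and 27 from all 129S1/SvImJ samples. Conversely, CAST/EiJ had 71 positions in each of its samples that C57BL/6J lacked throughout, PWK/PhJ had 49 and NOD/ShiLtJ 39. NOD/ShiLtJ thus had more missing positions than PWK/PhJ at these genes. The matching shares over the whole data set were not computed, so whether this order is particular to these genes is unknown. Whether a lost or gained CpG or MspI site lies behind them was not tested.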
